A study of Mus musculus with 16 samples.

Results

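Macrophages, monocytes and Kupffer cells were represented by 39 genes, which were taken by symbol from the deposited liver and kidney tables of 32989 genes. All 39 were present. Of these, 7 genes that mark the resident Kupffer cells of the liver, Clec4f, Vsig4, Timd4, Marco, Cd5l, Fcna and Folr2, were set apart from the other 32. The RNA came from male C57BL/6J mice aged 97 weeks. The LD-conditioned mice had lived under a fixed light–dark cycle, and the ADV-conditioned mice had lived for 85 weeks under a cycle that was moved forward by 8 h every 4 days, a form of chronic jet lag. There were 4 mice in each condition, named L63, L65, L86 and L104 (LD) and A75, A91, A94 and A115 (ADV), and liver and kidney of each were sequenced as poly(A)-selected, stranded, paired-end libraries. The mice were those still alive at this age and looked healthy when taken. Whole organs were used, so that more cells of a type and more RNA per cell cannot be told apart in any value given here.

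Kupffer cells are macrophages that sit on the wall of the liver sinusoids and clear bacteria, worn-out red cells and complement-coated particles from the blood. They are settled before birth and renew themselves, and when they are lost, monocytes from the blood can take their place and acquire genes such as Clec4f, with Timd4 among the last to appear. The macrophages of the kidney share the general genes of the lineage, such as the growth factor receptor Csf1r and the C1q chains, but are not known to express Clec4f. PU.1, the product of the member Spi1, is the transcription factor on which the whole lineage depends.

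Because PU.1 recognises a purine-rich stretch, the promoters of the members were searched for the letters GAGGAA on both strands. Promoter windows from 250 bases before to 50 after the start were taken from RefSeq (GRCm38.p6), where 29 of the 39 members had one. GAGGAA was found in 16 of these 29 windows (55.2%) and in 28.3% of all 32851 windows. The longer form GAGGAAGT, which contains GAGGAA, was found in 2 of the 29 (C1qc and Cyth4) and in 3.20% of all windows. Among the 7 resident Kupffer genes the shorter form occurred in 4 (Vsig4, Marco, Cd5l and Fcna). The windows of 3 resident genes whose LD and ADV livers did not overlap are shown, with the letters GAGGAA in capitals. Clec4f held none, Vsig4 held 2 that begin 155 and 53 bases before the start, and Fcna held 4, of which 3 begin 182, 169 and 163 bases before the start and 1 lies after it. The window of Folr2, the fourth such gene, held none, like that of Clec4f, and is not shown for that reason. A match describes the letters only, and binding was not measured.
Clec4f, chr6:83656067-83656366, minus strand: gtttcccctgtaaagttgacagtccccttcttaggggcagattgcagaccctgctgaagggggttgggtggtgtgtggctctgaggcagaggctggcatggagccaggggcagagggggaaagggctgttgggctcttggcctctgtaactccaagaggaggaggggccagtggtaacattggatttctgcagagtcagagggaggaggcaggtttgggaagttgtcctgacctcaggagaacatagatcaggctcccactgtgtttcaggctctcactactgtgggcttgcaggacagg
Vsig4, chrX:96293389-96293688, minus strand: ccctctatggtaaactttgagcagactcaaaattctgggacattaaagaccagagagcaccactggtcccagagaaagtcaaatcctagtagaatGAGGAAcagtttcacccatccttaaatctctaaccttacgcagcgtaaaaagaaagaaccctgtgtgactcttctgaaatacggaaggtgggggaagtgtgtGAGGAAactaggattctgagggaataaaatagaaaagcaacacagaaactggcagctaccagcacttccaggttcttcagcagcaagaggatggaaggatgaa
Fcna, chr2:25627925-25628224, minus strand: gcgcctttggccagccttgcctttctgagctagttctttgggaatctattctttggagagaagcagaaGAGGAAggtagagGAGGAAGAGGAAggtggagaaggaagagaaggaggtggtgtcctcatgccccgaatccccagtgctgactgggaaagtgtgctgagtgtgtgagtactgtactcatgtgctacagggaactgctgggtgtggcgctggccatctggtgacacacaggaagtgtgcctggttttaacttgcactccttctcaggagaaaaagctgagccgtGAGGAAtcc

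The deposited values are FPKM, fragments per kilobase of exon scaled to the size of the library. On genes, the LD livers held between 22501280 and 24285055 fragments, the ADV livers between 21092501 and 21721621 and the kidneys between 15688495 and 18043306. By the totals of the libraries, 1 fragment on a gene with 1 kb of exon amounted to 0.0380 to 0.0440 FPKM in the liver and 0.0508 to 0.0584 FPKM in the kidney. Hepatocyte genes summed to between 58051 and 74568 FPKM in the livers and kidney tubule genes to at most 1.39 FPKM there, while in the kidneys the tubule genes summed to between 21106 and 47360 FPKM, which is what the labelled organs should hold. The mice A94 and A115, both of the ADV condition, stood apart. A94 was the highest of the 8 livers for 36 of the 39 members and the highest of the 8 kidneys for 33, and in the kidney of A115 mitochondrial genes took 33.8% of the fragments on genes, against 9.43% to 18.02% in the other 7. Results are therefore also given without these mice. The libraries were sequenced at a pair of providers on different instruments, and which library came from which is not given in the sources used here. A sequencing batch can therefore not be told apart from the condition or from the organ. Differences between conditions were tested with limma on log2(FPKM + 0.1) over all genes whose mean in the organ, scaled to library size only, was above 0.5, with Benjamini-Hochberg adjustment, and single members also with a two-sided exact permutation test, in which the smallest p for 4 mice against 4 is 0.029.

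The first question was whether macrophage genes differed between ADV- and LD-conditioned livers. Of the 39 members, 37 passed the filter (not Lyz1 and Cd80), and all 37 had a log2 fold change above 0, with a median of 0.79 against a median of 0.10 over all 12835 genes tested. No member had an adjusted p under 0.05 by limma (0 higher and 0 lower, adjusted p between 0.296 and 0.736), against 0% and 0.00779% of all genes. Without adjustment, 15 members were higher at p under 0.05 and 0 were lower, where 8.65% of all genes tested were higher and 3.13% lower at that p. This count fell to 9 without L63 (5.54% of all genes), to 10 without L104 (5.85%) and to 4 with both organs in 1 fit (5.56%). In 16 members every ADV liver lay above every LD liver, which held for 6.94% of all genes tested, and in 0 every one lay below, which held for 1.89%. These 16 were Clec4f, Vsig4, Fcna, Folr2, C1qa, C1qb, C1qc, Csf1r, Adgre1, Mrc1, Msr1, Cd14, Ly86, Tyrobp, Plac8 and Cd86. Genes of 1 cell type go up and down together from mouse to mouse, so that these 16 are not 16 separate observations. Without A94 the median log2 fold change fell to 0.38, with all 37 values still above 0 and 20 at p under 0.05 (8.80% of all genes tested were higher at that p).

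Of the resident Kupffer genes, Clec4f, a lectin receptor for galactose-bearing glycoproteins that is used as the defining Kupffer marker, was at 20.3, 21.4, 27.6 and 26.6 FPKM in the livers of L63, L65, L86 and L104 and at 34.6, 28.5, 97.5 and 32.5 FPKM in those of A75, A91, A94 and A115. All 4 ADV livers were above the LD livers, with A91 close to L86 and A94 far above the others. The log2 fold change was 0.82 ± 0.35 (SE), with a limma adjusted p of 0.410 and an exact permutation p of 0.029, and 0.42 without A94.

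Vsig4 (CRIg), the receptor that takes up particles coated with complement C3 fragments, was at 17.8, 19.7, 23.9 and 20.8 FPKM in the LD livers and at 36.0, 25.8, 75.1 and 29.9 FPKM in the ADV livers, in the same order of mice. The groups did not overlap, and the log2 fold change was 0.89 ± 0.29 (SE), with a limma adjusted p of 0.348 and an exact permutation p of 0.029, and 0.57 without A94. Folr2, the folate receptor beta of resident macrophages, was at 5.49, 5.35, 6.52 and 5.84 FPKM in the LD livers and at 10.005, 7.74, 23.6 and 9.21 FPKM in the ADV livers. It did not overlap either and had the largest log2 fold change of the resident genes, 0.97 ± 0.30 (SE), with a limma adjusted p of 0.326 and an exact permutation p of 0.029, or 0.62 without A94.

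Fcna, which encodes ficolin A, a soluble lectin that starts the lectin pathway of complement, was the member with the smallest p and the resident gene least dependent on A94. It was at 26.1, 28.3, 29.6 and 32.6 FPKM in the LD livers and at 36.0, 37.6, 44.4 and 42.6 FPKM in the ADV livers. A94 was the highest, but only 1.15 times the mean of the other 3 ADV livers. The log2 fold change was 0.46 ± 0.11 (SE), with a limma adjusted p of 0.296 and an exact permutation p of 0.029, and 0.41 without A94.

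Cd5l (AIM), a secreted scavenger protein that promotes macrophage survival, stood highest of the resident genes in A94. It was at 34.3, 32.1, 46.2 and 37.6 FPKM in the LD livers and at 47.0, 45.8, 196 and 47.1 FPKM in the ADV livers. A91 lay just under L86, and A94 was 4.20 times the mean of the other 3 ADV livers. The log2 fold change was 0.84 ± 0.43 (SE), with a limma adjusted p of 0.458 and an exact permutation p of 0.057, and 0.32 without A94.

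Marco and Timd4 were the resident genes whose groups overlapped most. Marco, a scavenger receptor for unopsonized bacteria, was at 4.83, 2.25, 12.3 and 4.998 FPKM in the LD livers and at 4.29, 8.05, 11.7 and 8.20 FPKM in the ADV livers, and the LD mouse L86 was the highest of all 8. Its log2 fold change was 0.57 ± 0.47 (SE), with a limma adjusted p of 0.594 and an exact permutation p of 0.40, and 0.36 without A94. Timd4, the phosphatidylserine receptor TIM-4 of long-settled Kupffer cells, was at 1.41, 1.12, 2.52 and 1.39 FPKM in the LD livers and at 2.22, 1.54, 2.54 and 2.29 FPKM in the ADV livers. L86 and A94 were at about the same level, and the log2 fold change was 0.43 ± 0.25 (SE), with a limma adjusted p of 0.489 and an exact permutation p of 0.229.

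**Figure D1:**
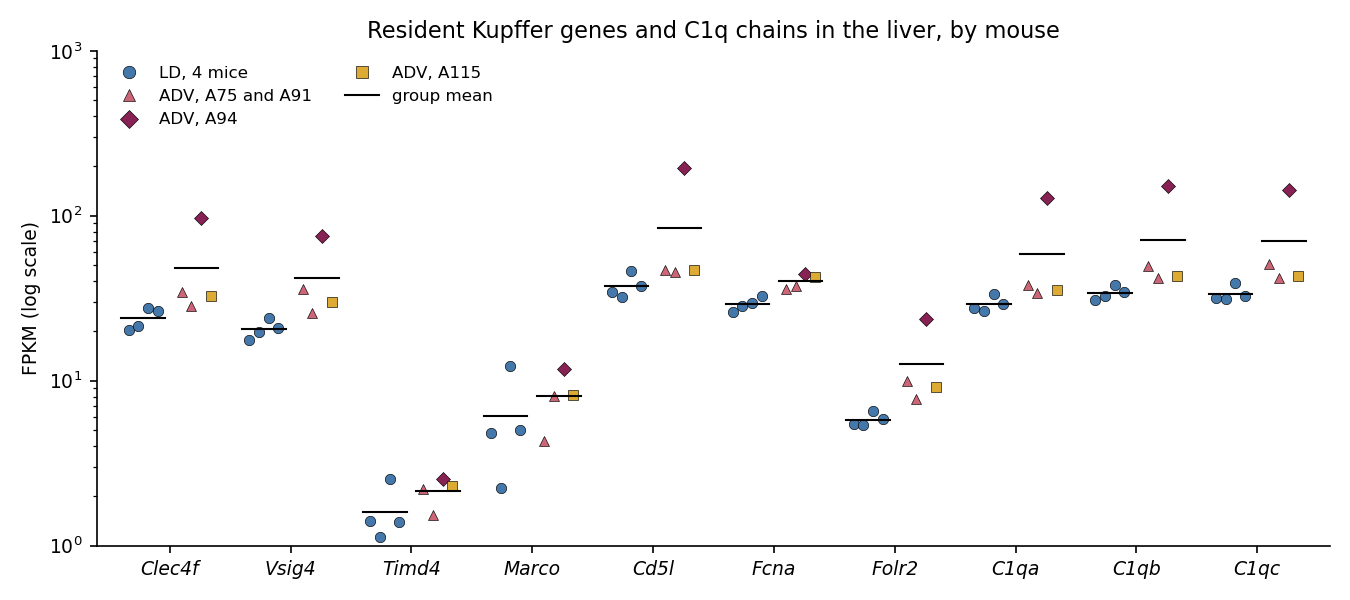
Level of the 7 resident Kupffer genes and the 3 C1q chains in each of the 8 livers (FPKM, log axis), with LD mice as circles, ADV mice as triangles (A75 and A91), diamonds (A94) and squares (A115), and the group mean as a line. A94 lies above every other mouse for all but Marco, where L86 is highest at 12.3 FPKM, and for Fcna the 4 ADV mice sit together between 36.0 and 44.4 FPKM.

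Summed over the 7 resident genes, the LD livers lay between 110.3 and 149 FPKM and the ADV livers at 170.0 (A75), 155 (A91), 451 (A94) and 172 (A115) FPKM. The other 32 members summed to between 282 and 361 FPKM in the LD livers and to 459, 373, 1149 and 394 FPKM in the same ADV mice. Both sums thus separated the conditions, and both were highest in A94. The resident genes made up between 27.0% (A75) and 30.4% (A115) of the summed level in each of the 8 livers, and 28.2% in A94. The share in A94 rested on Cd5l, which was 43.4% of its resident sum. Without Cd5l, the resident genes summed to 75.9 to 102 FPKM in the LD livers and to 123, 109, 255 and 125 FPKM in A75, A91, A94 and A115. The median ratio of A94 to the mean of the other 3 ADV livers was 2.46 for the resident genes and 3.41 for the other 32. The median log2 fold change was 0.82 for the 7 resident genes and 0.78 for the other 30 tested, and 0.41 and 0.37 without A94.

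The 3 chains of C1q, the recognition molecule of the classical complement pathway, are made mainly by macrophages and lie side by side on chromosome 4. C1qb was at 30.8, 32.7, 38.0 and 34.6 FPKM in the LD livers and at 49.7, 41.8, 151 and 43.3 FPKM in the ADV livers. C1qa was at 27.4, 26.6, 33.4 and 29.0 FPKM in the LD livers and at 38.0, 33.9, 128 and 35.5 FPKM in the ADV livers, where A91 lay just above L86. C1qc was at 31.8, 31.1, 39.1 and 32.5 FPKM in the LD livers and at 50.8, 42.1, 143 and 43.3 FPKM in the ADV livers. None of the 3 overlapped between the conditions. Their log2 fold changes were 0.76 for C1qa, 0.84 for C1qb and 0.85 for C1qc, with adjusted p between 0.400 and 0.451 by limma, and 0.30, 0.40 and 0.43 without A94.

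Among the growth factor receptor, the lineage factors and the general surface proteins, Csf1r, through which CSF1 and IL-34 keep macrophages alive, was at 6.78, 7.31, 9.23 and 9.05 FPKM in the LD livers and at 12.8, 10.7, 40.3 and 10.8 FPKM in the ADV livers (log2 fold change 0.96, 0.50 without A94). Adgre1, which encodes the F4/80 antigen, was at 3.83, 3.95, 5.81 and 5.16 FPKM in the LD livers and at 7.28, 6.30, 13.9 and 6.46 FPKM in the ADV livers (log2 fold change 0.78, 0.52 without A94). Both genes separated the conditions, which leaving out a mouse cannot undo. Spi1 (PU.1), Cd68, Aif1 and the sialic acid receptor Siglec1 overlapped between the conditions, and the log2 fold change of Spi1 was 0.60 with A94 and 0.07 without it. Nr1h3, which encodes the oxysterol receptor LXR-alpha and is also expressed by hepatocytes, was the most even member, between 36.6 and 40.7 FPKM in the LD livers and between 39.6 and 45.7 FPKM in the ADV livers (log2 fold change 0.10, adjusted p = 0.595 by limma).

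The scavenger and endotoxin receptors included members whose difference did not rest on A94. Cd163, the receptor that takes up haemoglobin bound to haptoglobin, was at 1.37, 1.34, 1.12 and 2.22 FPKM in the LD livers and at 2.02, 4.02, 3.47 and 6.68 FPKM in the ADV livers. A115, not A94, was the highest, and A75 lay under L104, so that the groups overlapped by 1 mouse. Cd163 had the largest log2 fold change of all members, 1.29 ± 0.33 (SE), with a limma adjusted p of 0.296 and an exact permutation p of 0.057, and 1.32 without A94.

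Mrc1, the mannose receptor CD206, was at 8.74, 7.76, 9.35 and 9.73 FPKM in the LD livers and at 11.4, 10.6, 15.5 and 13.8 FPKM in the ADV livers. Its groups did not overlap, and the log2 fold change was 0.51 ± 0.14 (SE), with a limma adjusted p of 0.296 and an exact permutation p of 0.029. Mrc1 is also expressed by the endothelium of the sinusoids, whose 8 marker genes summed to between 84.8 and 96.0 FPKM in the LD livers and to 92.3, 89.6, 90.3 and 123 FPKM in A75, A91, A94 and A115. The part of the endothelium in the level of Mrc1 was not tested.

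Msr1, the scavenger receptor A for modified lipoproteins, was at 4.00, 4.09, 5.13 and 4.31 FPKM in the LD livers and at 7.20, 5.42, 13.7 and 7.53 FPKM in the ADV livers (log2 fold change 0.85 ± 0.25 (SE), limma adjusted p = 0.310, 0.60 without A94). Cd14, the co-receptor for lipopolysaccharide, was at 1.16, 0.709, 1.67 and 1.73 FPKM in the LD livers and at 2.27, 1.98, 2.93 and 1.94 FPKM in the ADV livers (log2 fold change 0.80, 0.68 without A94). Ly86 (MD-1), the partner of the endotoxin-related receptor CD180, was between 3.87 and 4.54 FPKM in the LD livers and at 7.62, 6.10, 29.5 and 5.95 FPKM in the ADV livers (log2 fold change 1.14, 0.60 without A94). All 3 receptors separated the conditions, and in Cd14 A94 was 1.42 times the mean of the other 3 ADV livers, against 4.50 times in Ly86.

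Of the lysozymes and phagosome proteins, Lyz2, the lysozyme of macrophages and neutrophils, was at 54.7, 49.6, 92.4 and 58.1 FPKM in the LD livers and at 123, 78.4, 146 and 82.6 FPKM in the ADV livers. L86 lay above A91 and A115, and the log2 fold change was 0.75 ± 0.25 (SE), with a limma adjusted p of 0.353 and an exact permutation p of 0.086. Lyz1, its near-identical neighbour on chromosome 10, held 50 fragments over the 8 livers (at most 0.645 FPKM), and since reads of the pair can be shared, its low value is uncertain. Mpeg1, the pore-forming perforin-2, and Slc11a1, the phagosomal metal transporter NRAMP1, overlapped between the conditions, with log2 fold changes of 0.90 and 0.59 that became 0.34 and 0.22 without A94.

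The adaptors and signalling proteins of myeloid cells had the highest median, 4.65, of the ratio of A94 to the mean of the other 3 ADV livers among the 9 groups of members. A94 was the highest liver for all 7 of them (Tyrobp, Fgr, Laptm5, Cyth4, Lst1, Ms4a7 and Plac8), and the ratio lay between 3.17 and 6.34, with Laptm5, a lysosomal regulator of receptor turnover, at the top. Tyrobp (DAP12), the adaptor that carries the signal of TREM2, was at 18.2, 18.5, 21.0 and 17.3 FPKM in the LD livers and at 25.9, 23.0, 92.2 and 21.7 FPKM in the ADV livers. Plac8 was at 8.57, 8.81, 9.08 and 9.63 FPKM in the LD livers and at 16.9, 11.01, 80.5 and 12.2 FPKM in the ADV livers. These 2 separated the conditions, with log2 fold changes of 0.82 and 1.19 that became 0.33 and 0.54 without A94.

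Trem2 and Gpnmb, genes of lipid-associated macrophages, overlapped between the conditions. Trem2 was at 0.716, 1.40, 1.17 and 1.13 FPKM in the LD livers and at 1.31, 0.834, 6.40 and 1.47 FPKM in the ADV livers, so that apart from A94 the ADV mice lay about where the LD mice did (log2 fold change 0.70, 0.12 without A94). The log2 fold change of Gpnmb was 0.52, at levels of at most 0.581 FPKM. The receptor kinases that clear apoptotic cells, Axl and Mertk, gave 0.67 and 0.13, and 0.23 and 0.010 without A94. Of the costimulatory ligands, Cd86 was between 1.04 and 1.20 FPKM in the LD livers and at 1.70, 1.38, 3.82 and 1.59 FPKM in the ADV livers without overlap (log2 fold change 0.72, adjusted p = 0.386 by limma, 0.41 without A94), while Cd80 held 83.5 fragments over the 8 livers and was not tested.

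**Figure D2:**
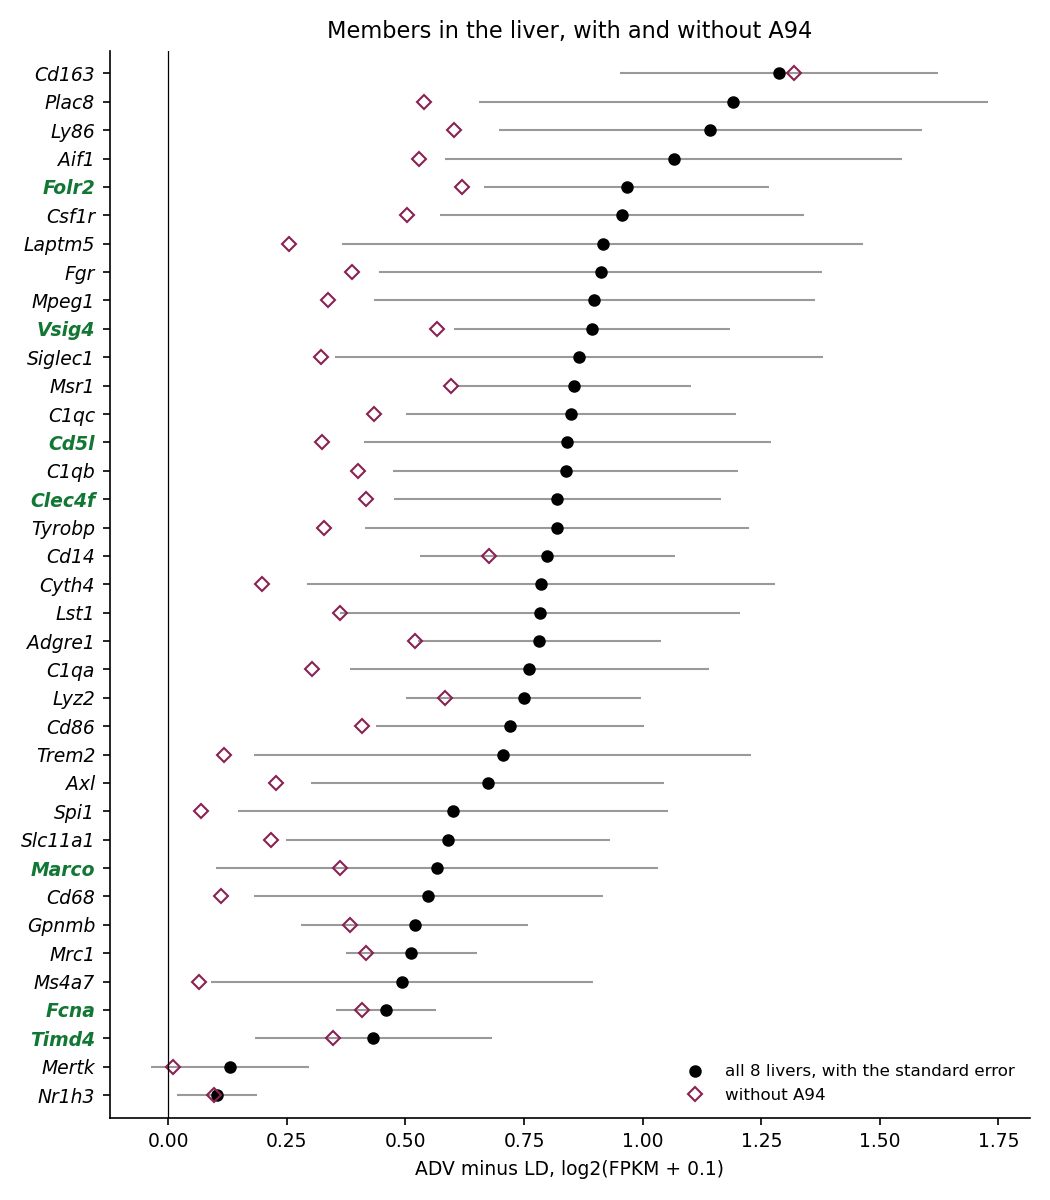
Log2 fold change of the 37 members tested in the liver, ADV minus LD on log2(FPKM + 0.1), from all 8 livers (filled circles, with the standard error) and without A94 (open diamonds), with the resident Kupffer genes in green. All 37 values lie to the right of 0 in both, the median moves from 0.79 to 0.38 without A94, and Cd163 stays at the top with 1.29 and 1.32.

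Other cell types stood high in the same mouse. The 8 genes of B and plasma cells summed to 693 FPKM in the liver of A94 and to between 5.06 and 18.4 FPKM in the other 7 livers, and the 12 neutrophil genes to 121 FPKM against 5.36 to 17.9. The 7 T cell genes summed to 18.4 FPKM against 1.37 to 2.27, and the 9 dendritic cell genes to 11.8 FPKM against 1.69 to 2.86. In A75, A91 and A115 these 4 sums were 13.9, 18.4 and 5.68 (B and plasma cells), 17.9, 11.9 and 5.36 (neutrophils), 2.17, 2.20 and 2.27 (T cells) and 2.27, 2.81 and 2.15 FPKM (dendritic cells), against LD ranges of 5.06 to 10.2, 7.80 to 13.8, 1.37 to 2.27 and 1.69 to 2.86 FPKM. A75 and A91 lay above the LD range for B and plasma cells and A75 for neutrophils, A115 lay under it for neutrophils, and the rest lay inside. Most of the B and plasma cell sum was Jchain, at 3.06 to 8.40 FPKM in the LD livers and at 9.90, 15.5, 600 and 3.21 FPKM in A75, A91, A94 and A115. Without Jchain, the other 7 summed to 1.79 to 3.04 FPKM in the LD livers and to 4.00, 2.88, 93.2 and 2.47 FPKM in the same ADV mice, so that A91 fell inside the LD range. The 7 stellate cell and fibroblast genes summed to between 117 and 135 FPKM in the LD livers and to 203, 162, 315 and 191 FPKM in the ADV livers, which did not overlap. Most of this sum was Dcn, at 103.6 to 119 FPKM in the LD livers and at 182, 147, 212 and 168 FPKM in the ADV livers. Without Dcn, the other 6 summed to between 13.6 and 15.5 FPKM in the LD livers and to 21.1, 15.4, 103 and 23.4 FPKM in the ADV livers, so that A91 fell inside the LD range. The 3 haemoglobin genes of blood cells summed to 393 FPKM in A94 and to between 171 and 250.4 FPKM in the other 7 livers. Of the 8 hepatocyte genes of A94, 5 lay inside the LD range and Fgb above it, while Cps1 was at 373 FPKM against 598 to 707 and Tat at 444 against 655 to 1235 in the LD livers. Members such as Plac8, Laptm5, Lyz2 and Cd86 are also expressed by some of these cells, and the part of other cells in the member levels was not tested.

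Relatives of the members that lie outside the 39 were described from 3 further lists. Of 15 monocyte genes, all 15 had a log2 fold change above 0 in the liver (median 0.93), 4 were higher at p under 0.05 and 7 lay higher in every ADV liver, against 8.65% and 6.94% of all genes tested. Without A94, 11 of these 15 still passed the filter and 10 were above 0, with a median of 0.41. F13a1, the coagulation factor XIII A chain of monocytes, was between 0.0528 and 0.116 FPKM in the LD livers and at 1.504, 0.123, 0.945 and 0.502 FPKM in the ADV livers (log2 fold change 1.93), with A75 the highest, and S100a4 was between 0.736 and 1.53 FPKM in the LD livers and at 3.32, 1.57, 15.4 and 4.04 FPKM in the ADV livers (1.88, 1.28 without A94).

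Of 26 tested genes of other Kupffer and tissue macrophage programmes, 20 had a log2 fold change above 0 (median 0.53, 0.20 without A94), 5 were higher and 1 lower at p under 0.05 (8.65% and 3.13% of all genes tested), and 4 lay higher and 1 lower in every ADV liver (6.94% and 1.89%). Slc40a1, the iron exporter ferroportin, through which macrophages return the iron of red cells, was at 36.1, 36.2, 43.2 and 42.5 FPKM in the LD livers and at 47.2, 53.5, 59.9 and 57.7 FPKM in the ADV livers (log2 fold change 0.47, adjusted p = 0.296 by limma). Like Fcna and Mrc1 it separated the conditions with all 4 ADV livers near each other. The tetraspanin Cd9 gave 0.94, with L86 above A91. Of 14 tested ligands and partners of the member receptors, 12 had a log2 fold change above 0 (median 0.32, 0.10 without A94), and the 2 with the smallest p were Cd180, the receptor that Ly86 accompanies (1.18, 0.66 without A94, separated), and Ly96 (0.30, overlapping). By limma, 0 genes of these 3 lists passed an adjusted p of 0.05.

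**Figure D3:**
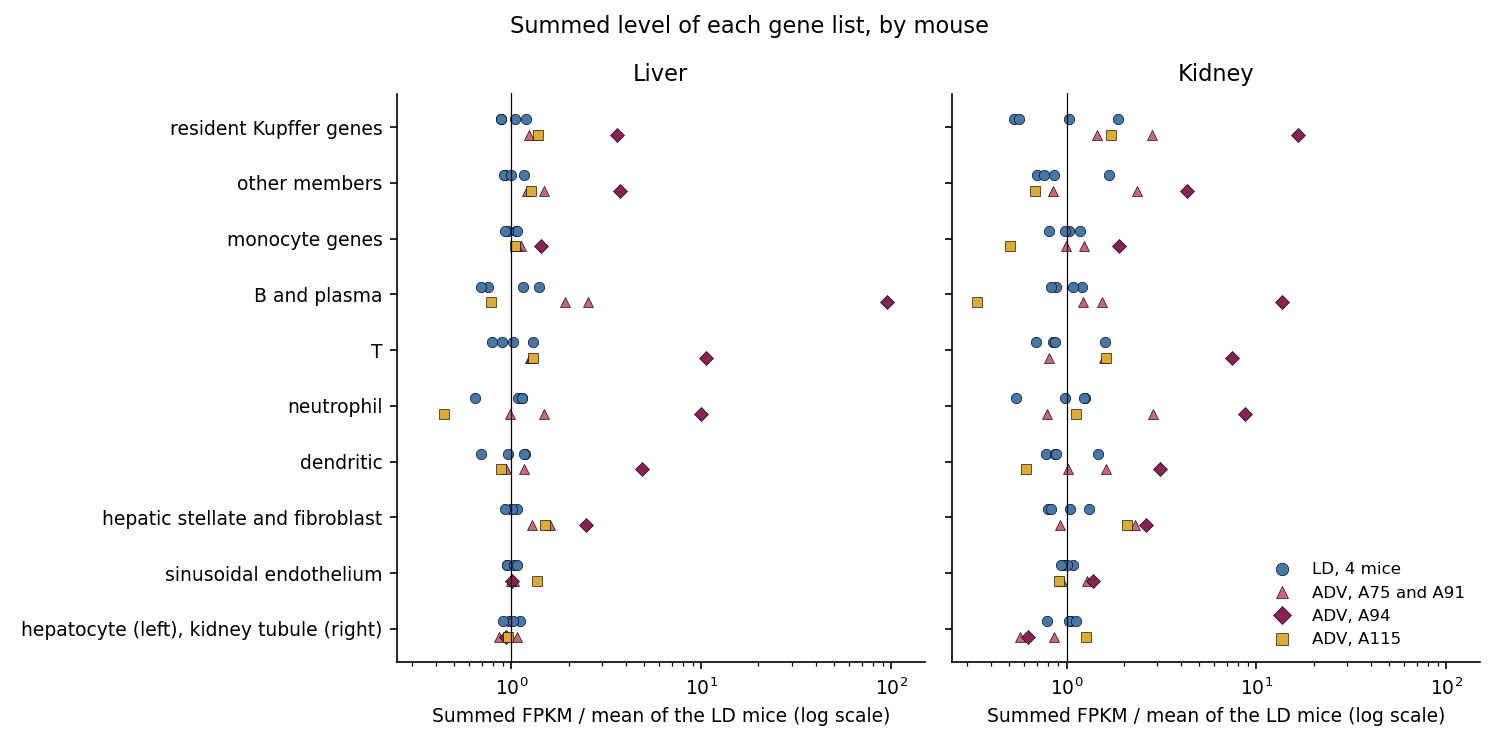
Summed FPKM of each gene list in each mouse, divided by the mean of the 4 LD mice of that organ (log axis), for liver (left) and kidney (right), with LD mice as circles, A75 and A91 as triangles, A94 as diamonds and A115 as squares. A94 is the farthest to the right for the members and for B and plasma, T, neutrophil and dendritic genes in both organs, with 693 FPKM of B and plasma cell genes in the liver, while the sum of its hepatocyte genes, 63237 FPKM of which 68.1% is Alb, lies inside the LD range.

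The second question was whether the same genes differed in the kidney. There, 34 members passed the filter (not Clec4f, Vsig4, Timd4, Marco and Cd80), and 31 had a log2 fold change above 0, with a median of 0.72 against −0.02 over all 14452 genes tested. No member had an adjusted p under 0.05 by limma, and 0% of all genes did in either direction. Fcna and Cd5l passed the filter only through A94, the mouse in which they were high, and are described without a test. Of the other 32, 29 were above 0 with a median of 0.72, and at an unadjusted p under 0.05 there were 2 higher (Folr2 and Spi1) and 1 lower (Mertk), where 1.75% of all genes were higher and 1.35% lower. Folr2 averaged 0.397 FPKM in the LD kidneys and 1.04 FPKM in the ADV kidneys, and by the LD kidneys alone it would not have passed the filter. Its call is therefore a description and not a test. No member separated the conditions in either direction, against 0.962% of all genes with every ADV kidney higher and 1.83% with every one lower. Without A94 the median was 0.23, with 25 of 32 values above 0, 0 members higher at p under 0.05 (0.847% of all genes) and Mertk lower (0.861%). Without A115 it was 1.06, with 33 of 34 above 0, and 15 members were higher at p under 0.05. The 34 and the 15 take in Fcna and Cd5l, which passed through A94. In that fit 29.5% of all genes tested were higher at the same p and the median of all genes was 0.20, so that A115 moved many genes besides these. Nr1h3 was then the one member with an adjusted p under 0.05 (adjusted p = 0.019 by limma, log2 fold change 0.49), where 16.1% of all genes were higher at that threshold.

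Resident Kupffer genes were at or near 0 in the kidney, with A94 the exception. Clec4f held 0 fragments in all 8 kidneys. Vsig4 held 13 fragments and Timd4 14.5 over the 8 kidneys, of which 10 each came from A94, and Marco held 3. Cd5l was at 4.00 FPKM in A94 and at most 0.219 FPKM in the other 7 kidneys. Fcna was at 0.0394, 0, 0.0445 and 0.169 FPKM in the LD kidneys and at 0.212, 0.259, 2.31 and 0.120 FPKM in the ADV kidneys (log2 fold change 1.70). Folr2, the resident gene with the highest level in LD kidneys, was at 0.168, 0.271, 0.379 and 0.768 FPKM there and at 0.981, 0.446, 1.93 and 0.801 FPKM in the ADV kidneys (log2 fold change 1.18, standard error 0.49, exact permutation test p = 0.057). L104 lay above A91 for Folr2 and above A115 for Fcna, so that both overlapped. Without A94 the log2 fold change of Folr2 was 0.85, and Fcna and Cd5l no longer passed the filter.

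The C1q chains varied widely among the kidneys of each condition. C1qb was at 12.2, 17.0, 35.4 and 18.2 FPKM in the LD kidneys and at 69.9, 17.1, 130 and 12.8 FPKM in the ADV kidneys. C1qa was at 11.5, 15.1, 32.2 and 15.1 FPKM in the LD kidneys and at 52.3, 17.7, 136 and 4.55 FPKM in the ADV kidneys. C1qc was at 5.47, 9.17, 21.1 and 10.5 FPKM and at 51.9, 13.9, 107 and 2.19 FPKM. For all 3 chains A75 and A94 were high, A91 lay among the LD mice, and L86 was the highest LD mouse. A115 lay among the LD mice for C1qb and under all of them for C1qa and C1qc. The log2 fold changes were 0.69 for C1qa, 0.97 for C1qb and 0.99 for C1qc, with standard errors between 0.75 and 1.11, and without A94 they were −0.075, 0.38 and 0.19. Without A115 they were 1.55, 1.49 and 2.04.

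Spi1 was at 1.44, 1.85, 2.51 and 1.25 FPKM in the LD kidneys and at 4.19, 2.34, 9.57 and 2.38 FPKM in the ADV kidneys, and only L86 reached into the ADV range (log2 fold change 1.14, standard error 0.46, exact permutation test p = 0.086). Aif1 (IBA1), an actin-bundling protein of macrophages, was at 2.53, 1.01, 3.19 and 1.33 FPKM in the LD kidneys and at 5.70, 1.83, 12.6 and 3.79 FPKM in the ADV kidneys (1.33, standard error 0.60). Ly86 was at 5.17, 7.42, 9.19 and 4.14 FPKM in the LD kidneys and at 12.8, 5.30, 28.8 and 12.1 FPKM in the ADV kidneys (0.995, standard error 0.49). In all 3 genes A91 lay within the LD range. Without A94 the log2 fold changes of Spi1, Aif1 and Ly86 were 0.71, 0.87 and 0.59.

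Mertk, by which phagocytes clear apoptotic cells, was the member with the largest negative value. It was at 15.4, 14.2, 11.4 and 13.7 FPKM in the LD kidneys and at 10.4, 11.4, 11.4 and 7.64 FPKM in the ADV kidneys. L86 lay at the level of A91 and A94, and the log2 fold change was −0.43 (standard error 0.18, p = 0.047 before adjustment, exact permutation test p = 0.086), and −0.30 without A115. Lst1 and Nr1h3 were the other members below 0, at −0.19 and −0.11, and without A115 they turned to 1.08 and 0.49. In the kidney of A115 Nr1h3 was at 3.99 FPKM against 14.6 to 24.4 in the other 7, and Lst1 at 0 against 0.686 to 9.18. A115 was the lowest kidney for 14 members.

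Lyz2 was at 34.4, 50.7, 127 and 35.6 FPKM in the LD kidneys and at 124, 40.9, 271 and 49.7 FPKM in the ADV kidneys, and Lyz1 at 0.409, 0.463, 2.03 and 0.546 FPKM and at 0.573, 1.03, 4.51 and 0.746 FPKM. L86 was the highest LD mouse and A94 the highest ADV mouse for both lysozymes. Their log2 fold changes were 0.78 and 0.73, with exact permutation test p of 0.314 and 0.429, and 0.25 and 0.12 without A94. Summed over the 32 general members, the LD kidneys lay between 165 and 394 FPKM and the ADV kidneys at 549 (A75), 199 (A91), 1016 (A94) and 161 (A115) FPKM, which overlap.

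**Figure D4:**
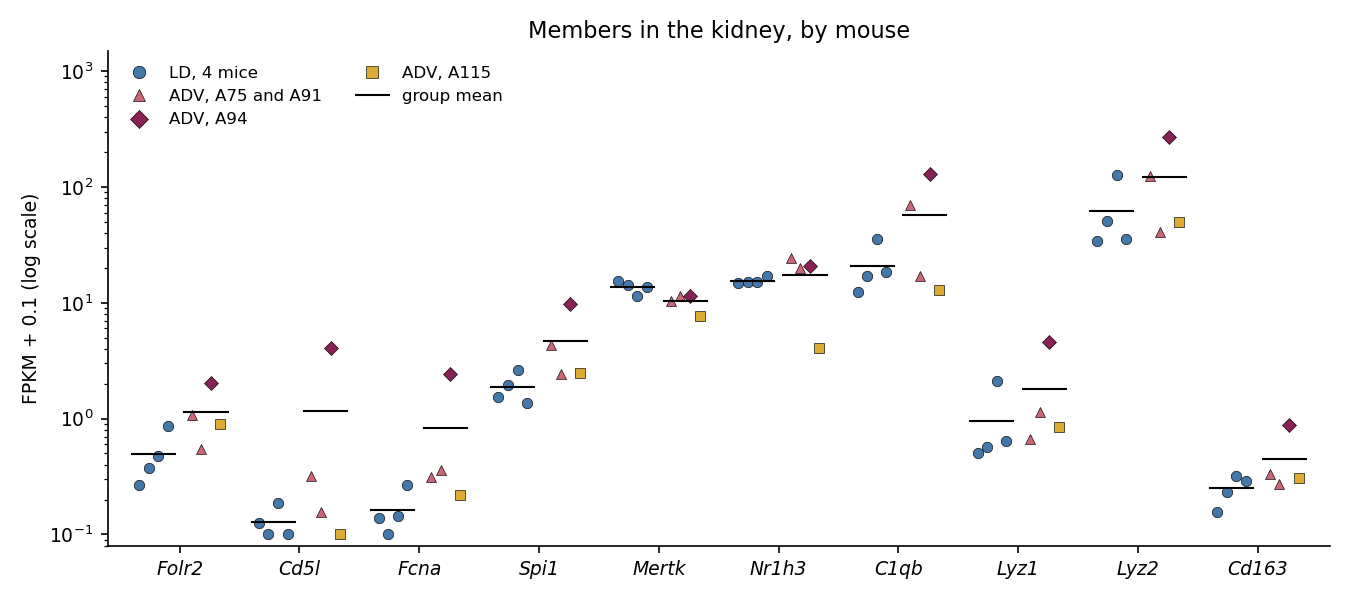
Level of 10 members in each of the 8 kidneys (FPKM + 0.1, log axis), with LD mice as circles, A75 and A91 as triangles, A94 as diamonds, A115 as squares and the group mean as a line. The conditions overlap in every gene shown, A94 is highest in all but Mertk and Nr1h3, and Nr1h3 is lowest in A115 at 3.99 FPKM.

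In the kidney, too, the genes of other immune cells were highest in A94, with 541 FPKM of B and plasma cell genes against 13.3 to 60.8 in the other 7, 35.4 FPKM of T cell genes against 3.31 to 7.65, and 27.7 FPKM of neutrophil genes against 1.72 to 9.08. The summed kidney tubule genes were carried by Kap, an androgen-dependent protein of the proximal tubule, which lay under the LD range of 26080 to 38938 FPKM in A75 (16595 FPKM) and A94 (19599.7 FPKM) and above it in A115 (45922 FPKM). The other 7 tubule genes summed to between 2970 and 3393 FPKM in the LD kidneys, to 4512, 3996 and 3602 FPKM in A75, A91 and A94 and to 1439 FPKM in A115, where 6 of the 8 lay under the LD range. The 7 stellate cell and fibroblast genes summed to between 40.8 and 67.3 FPKM in the LD kidneys and to 117, 47.3, 133 and 106 FPKM in A75, A91, A94 and A115. The haemoglobin genes summed to between 152 and 346 FPKM in the LD kidneys and to 627, 339, 823 and 111 FPKM in the same ADV mice. The part of these cells, of blood and of the tubule in the member values was not tested. Of 14 tested monocyte genes 12 had a log2 fold change above 0 (10 of 13 without A94), and the 2 with the smallest p were the matrix proteoglycan Vcan (0.66, all 4 ADV kidneys above the LD kidneys) and F13a1 (1.02, 0.65 without A94). Of 27 genes of other Kupffer and tissue macrophage programmes 22 were above 0 with a median of 0.24, and without A94 only 12 of the 25 still tested were, with a median of −0.0058. The 2 with the smallest p were Lpl, the lipoprotein lipase, which lay between 144 and 222 FPKM in the LD kidneys and between 106 and 123 FPKM in the ADV kidneys (−0.66), and the complement component C6 (1.14). Of 15 ligands and partners 13 were above 0 (12 without A94), and the 2 with the smallest p were C1ra and Csf2ra, at 0.86 and 0.89 (0.56 and 0.59 without A94).

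The third comparison set the organs against each other, with the contrast of ADV and LD tested for a difference between liver and kidney. Clec4f, Vsig4, Timd4 and Marco had passed the filter through the liver alone and Lyz1 through the kidney alone, so that only the other 33 members have a contrast in both organs to compare. Fcna and Cd5l are among the 33, although they passed in the kidney through A94 alone. Of the 33, 0 had an adjusted p under 0.05 for the difference by limma, as did 0% of the 12319 genes that passed in both organs, and 1 was higher in the liver contrast at an unadjusted p under 0.05, where 2.88% of those genes were (3.01% of all 14968 in the fit). This was Mertk, with a difference of log2 fold changes of 0.56 ± 0.25 (SE), and with the mouse as a replicate block 0 of the 33 passed this unadjusted threshold, against 2.5% of the genes. The median difference was 0.011 over the 33 members and 0.13 over the genes that passed in both organs. The larger number of separated members in the liver is therefore not shown to be a difference between the organs.

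Levels in the organs differed most for the resident genes, except that the general member Msr1 lay just above Folr2 (log2 difference 3.66 and 3.60). Since exon length is shared and every library had been scaled to its own fragments alone, FPKM were set side by side, but liver fragments are concentrated on few genes, and the median of all genes was lower in the liver by 0.75 on the log2 scale (−0.75, and −0.03 after scaling by the median ratio). Of the 33 members that passed in both organs, 12 were higher in the liver at an adjusted p under 0.05 by limma and 3 lower, where 12.1% of the 12319 genes were higher and 59.1% lower (13.2% and 61.9% of all 14968). The 12 take in Fcna and Cd5l. With the mouse as a replicate block, 16 were higher and 4 lower (12.6% and 59.8%), C1qb, Aif1, Tyrobp and Trem2 being added on one side and Ly86 on the other. After scaling by the median ratio, 23 were higher and 2 lower (33.6% and 27.6%), and after quantile normalization 23 and 1 (32.4% and 28.5%).

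All 7 resident genes lay higher in every liver than in every kidney (8.57% of all genes were higher without overlap and 34.9% lower). For Clec4f, Vsig4, Timd4 and Marco, which passed through the liver alone, this is a description without a test. Folr2 passed in both organs and was higher in the liver in each of these fits (3.60 on the log2 scale with FPKM as deposited). Fcna and Cd5l were higher in each fit as well. They passed in the kidney through A94 alone, so that for them, too, the difference is a description without a test. Clec4f was at 36.1 ± 25.3 FPKM (SD, n = 8) in the livers and, set against the 3 fragments over the 8 kidneys together that a count of 0 allows, a one-sided limit, at least 4153-fold higher there per fragment of the library. For Vsig4 the ratio of the summed fragments, scaled by library size, was 492 (two-sided 95% exact interval 287 to 924, for counting error only). For Marco it was 679 (232 to 3296) and for Timd4 41.0 (23.9 to 71.2). Without A94, which held most of the kidney fragments of Vsig4 and Timd4, the ratio was 1486 (508 to 7208) for Vsig4, 109 (41.8 to 303) for Timd4 and 805 (222 to 6649) for Marco, and Clec4f was at least 2754-fold higher. Cd5l was at 60.7 ± 54.9 FPKM in the livers and 0.548 ± 1.40 FPKM in the kidneys (log2 difference 7.85, standard error 0.61), and Fcna at 34.6 ± 6.67 and 0.394 ± 0.780 FPKM (6.96, standard error 0.39).

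Of the other members, Msr1 (log2 difference 3.66), Cd163 (2.98) and Nr1h3 (1.45) lay higher in every liver than in every kidney. Mrc1 (2.12), Siglec1 (1.90), C1qc (1.63), Mpeg1 (1.32), Slc11a1 (1.02) and Adgre1 (0.99) also passed the threshold, C1qc in 7 of 8 mice and the others in 8 of 8. Csf1r was at 13.4 ± 11.1 FPKM in the livers and 10.4 ± 4.89 FPKM in the kidneys, and Spi1 at 3.22 ± 2.85 and 3.19 ± 2.73 FPKM, with adjusted p of 0.499 and 0.908 by limma. These calls rested on the scale. After scaling by the median ratio Csf1r was higher in the liver by 1.03 and Spi1 by 0.79 on the log2 scale (adjusted p = 0.0021 and 0.025 by limma), and after quantile normalization by 0.84 and 0.95 (0.0086 and 0.010). The chains C1qa and C1qb had log2 differences of 0.79 and 0.76 with adjusted p of 0.197 and 0.135 by limma, and both passed the threshold at 1.57 and 1.53 after scaling by the median ratio (adjusted p = 0.0063 and 0.0016 by limma) and at 1.16 and 1.09 after quantile normalization (0.046 and 0.028). Lyz2 was at 85.7 ± 34.2 FPKM in the livers and 91.7 ± 82.0 FPKM in the kidneys, with a log2 difference of 0.21 (adjusted p = 0.631 by limma), which became 0.98 after scaling by the median ratio (adjusted p = 0.0149) and 0.36 after quantile normalization (0.391).

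The members higher in the kidney were Cd14 (log2 difference −1.54), Mertk (−1.39), Ms4a7 (−0.92) and, as a description since it passed the filter through the kidney alone, Lyz1 (−1.92), each lower in the liver of all 8 mice. Mertk, at 4.47 ± 0.783 FPKM in the livers and 11.9 ± 2.45 FPKM in the kidneys, did not overlap between the organs, and it is also expressed by cells other than macrophages. Cd14 and Mertk kept their direction and call after scaling by the median ratio (−0.79 and −0.62), but after quantile normalization Mertk kept its call (−0.71) and Cd14 did not (−0.69, adjusted p = 0.062 by limma). Lyz1 was at −1.35 and −0.67 under these scalings. Ms4a7 was at −0.21 after scaling by the median ratio and turned to 0.19 after quantile normalization. Cyth4, a guanine exchange factor of leukocytes and the fifth lowest member at −0.61 (adjusted p = 0.263 by limma), turned to 0.13 and 0.35 under these scalings.

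**Figure D5:**
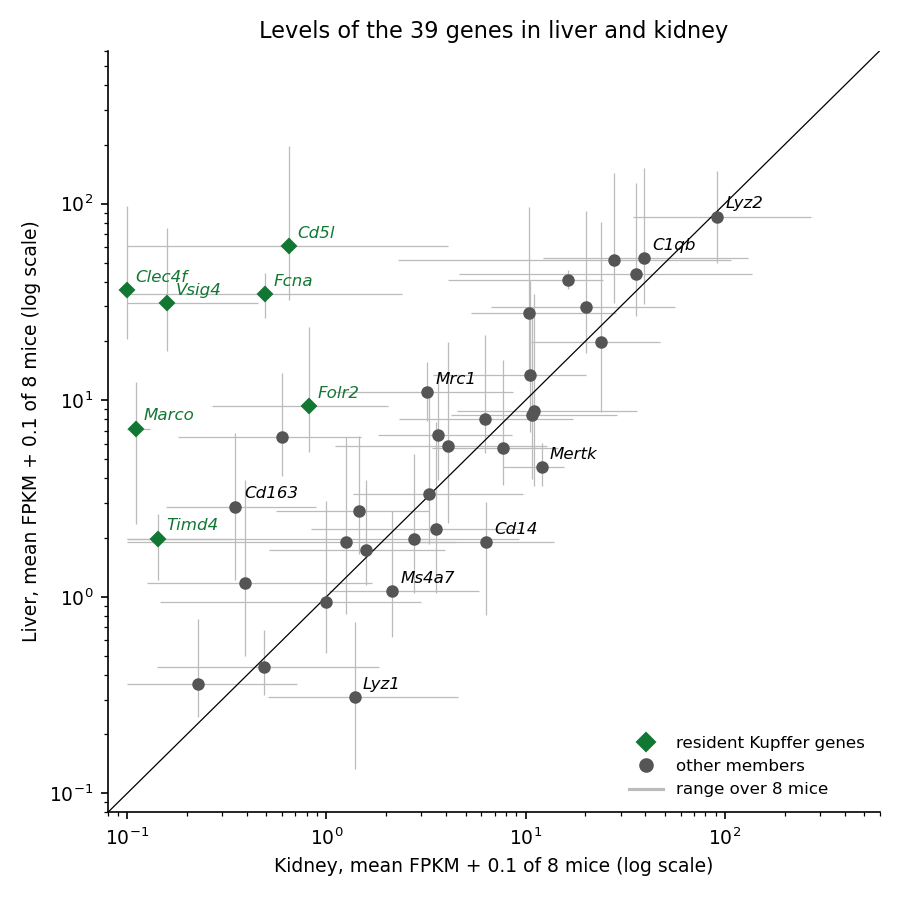
Mean level of each of the 39 members in the 8 kidneys (horizontal) and the 8 livers (vertical), as FPKM + 0.1 on log axes, with bars for the range over mice, the line of equal level, and the resident Kupffer genes as green diamonds. The 7 resident genes lie far above the line, Clec4f at 36.1 FPKM in the liver and 0 in the kidney, while Lyz1, Cd14, Mertk and Ms4a7 lie below it.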

How the data were processed

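The members and all gene lists were chosen with earlier results of these data known. Libraries were grouped by the titles, and the same mouse number in liver and kidney was taken as the same animal. As a check, each library was centred on its group mean and the organs of a mouse were correlated over 12319 genes. The correlations were 0.147 (L63), 0.117 (L65), 0.185 (L86), 0.0982 (L104), −0.0242 (A75), 0.334 (A91), 0.553 (A94) and 0.0423 (A115).

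The authors trimmed the reads, mapped them to GRCm38/mm10 with STAR (2.5.4b in the submitters' processing notes), removed poorly mapped reads and quantified the exons of UCSC canonical genes with Homer. The deposited values are FPKM, although the column headers say RPKM, scaled within each library alone. Multiplied back by exon length and total, every value fell on a step of 0.5 fragment within a tolerance of 0.02, and these recovered fragments gave the fragment numbers and the limma-voom alternative. The test of the study, DESeq2 on counts, was not run here. For a repeated symbol the row with the highest mean was used.

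R 4.3.3 with limma 3.58.1 (lmFit, eBayes with a trend) was run on log2(FPKM + 0.1) in each organ, and over all 16 libraries for the organ comparisons, where a gene had to pass the filter of a mean above 0.5, scaled to library size only, in either organ. Fold changes on this scale understate those of genes with low values. The fit was tested on simulated data. Named with full values were the resident genes, the C1q chains, Lyz1 and Lyz2, members whose groups did not overlap, the 6 smallest p per organ, the 5 highest and 5 lowest between organs, and the 2 smallest p per further list. Intervals are exact at 95% and, like the limit of 3 fragments, cover counting error only. Alternatives were pseudocounts of 0.5 and 1, no filter, a mean FPKM above 1, median-ratio scaling, quantile normalization, limma-voom, both organs in 1 fit, mitochondrial genes left out, leaving out each mouse, and a replicate block for the mouse. Leaving out A94 together with median-ratio scaling was added after the data had been seen. Trac and Hbb-bt, listed for T cells and blood, were not used here.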

Additional observations from a re-analysis of the deposited data

Results flagged for a closer look

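In groups of 4 mice, a single value was sought that lay far from the other 3 (Dixon's ratio at its 95% limit), in 147 groups with at least 5 fragments in a library. Chance gives such a value in about 1 of 20 groups, and members move together. Of 33 such values, 22 were the liver of A94, 6 the kidney of A94 and 5 the kidney of the LD mouse L86.

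In the liver of A94 they were Clec4f (97.5 FPKM), Cd5l (196), Folr2 (23.6), C1qa (128), C1qb (151), C1qc (143), Csf1r (40.3), Spi1 (10.2), Adgre1 (13.9), Siglec1 (3.82), Cd68 (21.3), Ly86 (29.5), Mpeg1 (96.5), Slc11a1 (6.47), Tyrobp (92.2), Fgr (2.99), Laptm5 (34.8), Cyth4 (7.67), Plac8 (80.5), Trem2 (6.397), Axl (15.9) and Cd86 (3.82). Vsig4, Fcna, Timd4, Marco, Cd163, Mrc1, Msr1, Cd14 and Lyz2 gave no such value in the liver. In the kidney of A94 they were Vsig4 (0.356 FPKM), Cd5l (4.00), Fcna (2.31), Cd163 (0.783), Lyz1 (4.51) and Cd80 (0.613). In the kidney of L86 they were Adgre1 (4.48 FPKM), Cd14 (12.1), Lyz1 (2.03), Fgr (1.37) and Ms4a7 (2.43), so that high macrophage genes in a kidney were not limited to the ADV condition.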

How the results depend on the processing

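All 37 tested members kept a log2 fold change above 0 in the liver under both scalings, limma-voom, both pseudocounts and each left-out mouse, and none reached an adjusted p under 0.05 in any of them. With 1 mouse left out, the median lay between 0.38 and 0.98 (0.41 to 1.01 for the resident genes), the separated members between 16 and 22 (8.33% to 14.8% of all genes) and those at p under 0.05 between 9 (without L63) and 22 (5.54% to 13.4%). The number of separated members was 16 with all mice, and leaving out a mouse cannot lower it. With both organs in 1 fit 4 were at p under 0.05 (5.56%). In the kidney, members higher at p under 0.05 were 1 with a mean FPKM above 1 (1.19% of all genes), 1 with limma-voom (1.29%), 5 with both organs in 1 fit (2.79%) and 0 to 15 with 1 mouse left out (0.745% to 29.5%). Adjusted calls were then 0 to 1 (0% to 16.1%). These kidney counts are over all members tested, Fcna and Cd5l among them where they passed the filter. Separated members were 0 to 4, with 4 without A91 (4.43% of all genes) and 2 without A115 (24.8%). Without A115 and scaled by the median ratio, 9 were at p under 0.05 and 2 separated, against 17.7% and 15.3% of all genes. The kidney resident median, 1.61, rests on 3 genes, of which Cd5l and Fcna passed through A94. It was 0.54 with a pseudocount of 1, 2.56 with limma-voom, 1.49 to 2.08 with another mouse left out, 0.85 without A94 (Folr2 alone) and 0.47 with both organs in 1 fit, which takes in 7 genes, 4 of them through the liver. C1qa in the kidney lay between −0.075 (without A94) and 1.55. For the difference between the organs, 3 members were at p under 0.05 with a pseudocount of 1 (2.76%), 0 with the replicate block (2.65%) and 0 to 2 with 1 mouse left out (1.43% to 7.41%). For levels, the 38 members in the fit take in 4 that passed through the liver alone and Lyz1, which passed through the kidney alone. After either scaling 27 were higher in the liver, those 4 among them (31.0% and 30.9% of all genes). Lower were 3 after median-ratio scaling, Lyz1 among them (34.6%), and 1 after quantile normalization (32.3%). Cyth4 turned to 0.13 and 0.35 and Ms4a7 to 0.19. The replicate block changed no other count by over 1.5 times. The causes were not tested. With 4 mice a group and these library sizes, members near 0 in the kidney could not be compared.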
